A study of Homo sapiens with 54 samples.

Results

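The 10 genes described here control the passage of a cell from G1 into DNA synthesis: the D cyclins CCND1 and CCND3, their kinases CDK4 and CDK6, the E cyclins CCNE1 and CCNE2, their kinase CDK2, the inhibitor CDKN1B, the pocket protein RB1 and the transcription factor E2F1. They were taken by name, and not by a rule on their values, as 10 of the 60642 rows of a table of human transcripts. Earlier results of these data were known when they were chosen. In this pathway D cyclins, made in answer to growth signals, activate CDK4 and CDK6, which phosphorylate the RB1 protein and so free E2F factors that turn on the genes of DNA synthesis, CCNE1 among them. E cyclins with CDK2 then complete the phosphorylation of RB1. The CDKN1B protein, p27, binds and blocks cyclin E with CDK2, and its amount is set largely by protein degradation. In hormone-dependent prostate cancer cells, androgens drive this step, and withdrawing them holds cells in G1. RNA levels, as measured here, give neither phosphorylation nor protein amounts.

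RNA-seq was performed on 54 tumours of the LNCaP line (clone FGC), an androgen-sensitive human prostate cancer line, each grown under the skin of its own male NOD-SCID mouse, a host without a working adaptive immune system. At about 200 mm3 the mice were castrated or, in PRE-CX (n = 9), had mock surgery, and PRE-CX tumours were taken at 1000 mm3. The tumours of the other 4 groups all came from castrated mice: POST-CX (n = 8) when the serum marker PSA was lowest after castration, CRPC (n = 10) when PSA had returned or 1000 mm3 was reached. In both remaining groups enzalutamide, a drug that blocks androgen signalling, was given by mouth at 10 mg/kg on 5 days a week from the first rise of PSA, and tumours were taken at the second PSA low (ENZS, n = 12) or after PSA or tumour size had escaped (ENZR, n = 15). All groups come from 1 clone, so the spread between tumours is that between mice and not between patients.

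Values are TPM, the share of a tumour's transcripts that come from a gene, corrected for transcript length. Human genes summed to between 12.1% and 97.5% of the TPM of a tumour, with the total of 4 tumours under 70%: POST-CX mice 48 and 91 and ENZR mice 87 and 103. Where the human total is low, all genes of the tumour are scaled down together, so values are given as deposited and, where this matters, after each tumour was rescaled to the same human total or without these 4 tumours. As deposited, mouse 91 gave the lowest POST-CX value and mouse 87, at a human total of 12.1%, the lowest ENZR value of every member. The lower ends of the POST-CX and ENZR ranges below therefore carry this scaling. The prostate epithelial markers KLK2, KLK3, HOXB13, FOLH1, KRT8, KRT18, EPCAM and TMPRSS2 all passed the filter on low values (1 TPM in at least 8 tumours), and the lowest of their group medians was 45.9 TPM, that of KLK2 in ENZR. Of 16 stroma, vessel and blood markers 7 passed that filter, and the summed level ranged over 8.90 to 20.4 TPM (PRE-CX), 9.31 to 31.6 TPM (POST-CX), 16.7 to 93.9 TPM (CRPC), 22.4 to 242 TPM (ENZS) and 13.8 to 79.9 TPM (ENZR). Among the 7, 5 were higher and 1 lower in ENZS minus PRE-CX, and 3 higher and 1 lower in ENZR minus PRE-CX. PECAM1 and CDH5 of vessels, PTPRC of leukocytes and HBB of red cells stayed at or below 0.34 TPM in every tumour, but VWF of vessels reached 7.3 TPM and the macrophage marker CD68 10.2 TPM, with a CD68 median of 0.50 TPM in PRE-CX and 3.03 TPM in ENZS. The host cells were mouse cells and the table holds human genes only, so these marker levels are not a direct measure of host stroma, vessels or blood. The source of these levels and their part in the differences below were not tested. In bulk tumours fewer dividing cells and less RNA per cell cannot be told apart.

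Start-site sequence was read for E2F1, which itself is a target of E2F factors, and for other members. For E2F1, CCNE1 and CDK4, members whose levels fell under enzalutamide and whose start was in the RefSeq promoter table (GRCh38.p14), the 250 bases before the start are shown on the strand of the gene, with E2F motifs in capitals. The motifs searched, on both strands, were TTTCCCGC, TTTCGCGC, TTTGCCGC and TTTGGCGC, and at least 1 of them occurred in 2.79% of 35116 promoter windows of this length.
E2F1 (chr20:33686386-33686635, minus strand): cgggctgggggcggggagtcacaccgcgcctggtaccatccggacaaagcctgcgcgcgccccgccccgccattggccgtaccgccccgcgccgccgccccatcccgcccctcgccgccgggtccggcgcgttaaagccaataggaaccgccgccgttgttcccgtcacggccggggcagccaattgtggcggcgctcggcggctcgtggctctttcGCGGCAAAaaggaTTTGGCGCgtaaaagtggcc
CCNE1 (chr19:29811741-29811990, plus strand): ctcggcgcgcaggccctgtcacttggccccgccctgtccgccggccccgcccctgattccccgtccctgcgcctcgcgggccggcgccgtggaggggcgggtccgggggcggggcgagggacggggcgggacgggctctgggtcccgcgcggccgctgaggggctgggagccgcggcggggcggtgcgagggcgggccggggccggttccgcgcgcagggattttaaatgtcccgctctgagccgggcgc
CDK4 (chr12:57752311-57752560, minus strand): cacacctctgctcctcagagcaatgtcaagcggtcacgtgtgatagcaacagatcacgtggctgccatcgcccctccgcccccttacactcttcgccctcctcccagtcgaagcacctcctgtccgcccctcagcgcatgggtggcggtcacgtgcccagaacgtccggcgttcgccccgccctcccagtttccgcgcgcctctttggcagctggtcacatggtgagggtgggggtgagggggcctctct
The E2F1 window held TTTGGCGC, whose nearest base lies 13 bases before the start, and, not overlapping it, TTTGCCGC on the other strand, at 26 bases. A pair or more of such matches occurred in 0.122% of the windows. The windows of CCNE1, CDK4, CDK6 and CDKN1B held none of these motifs. Other forms of the motif and bases after the start were not searched, so a window without a match may still hold an E2F site. CDK2 and CCNE2, also lower under enzalutamide, had no entry in the promoter table.

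Among the 9 members that passed the filter, E2F1, the kinases CDK2 and CDK4 and the E cyclins were lower under enzalutamide. CDK6, near 0 and fitted without the filter on the deposited scale only, was lower in every castrated group. Against PRE-CX, ENZS tumours had lower E2F1 (0.222-fold), CDK2 (0.375-fold), CCNE1 (0.549-fold) and CDK4 (0.620-fold), which makes 4 of 9 members tested, where 8.18% of all 17131 genes tested were lower and 30.3% higher at an adjusted p under 0.05. ENZR tumours had the same 4 lower and CCNE2 besides, 5 of 9, where 11.5% of all genes were lower and 17.6% higher. No member was higher in either group, and the D cyclins CCND1 and CCND3, CDKN1B and RB1 did not pass the test. Folds are ratios on the scale of TPM + 1, which understates the change of low genes, and tests were made with limma on log2(TPM + 1) over all genes. The median log2 difference of all genes was 0.26 in ENZS minus PRE-CX and 0.07 in ENZR minus PRE-CX.

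**Figure D1:**
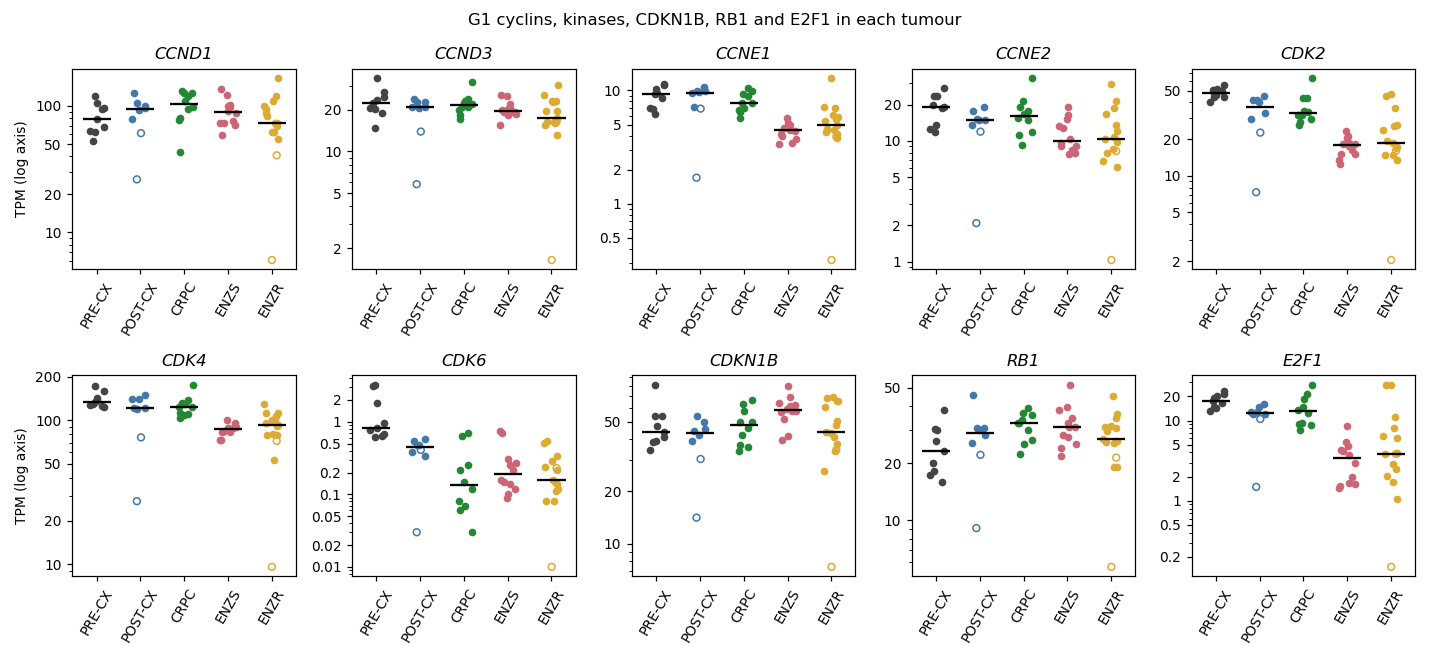
TPM of the 10 members (log axis) in each of 54 tumours by group, with the group median as a bar and the 4 tumours of low human total as open circles. All 12 ENZS tumours lay below the lowest PRE-CX tumour in CCNE1, CDK2, CDK4 and E2F1, while the groups overlapped in CCND1, CCND3, CDKN1B and RB1.

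CCND1 (chr11:69641156-69654474), the D cyclin that answers to growth signals, was the more abundant of both D cyclins. In PRE-CX its level ran from 52.4 TPM over a median of 78.6 to 119 TPM. The median was 94.5 TPM in POST-CX (range 26.3 to 126), 103 TPM in CRPC (43.4 to 132), 89.6 TPM in ENZS (58.6 to 137) and 73.4 TPM in ENZR (6.06 to 167). The ranges of all groups overlapped, and as deposited the ENZR tumours held both the lowest value, that of mouse 87, and the highest. After rescaling the lowest value was that of CRPC mouse 47, at 48.5 TPM, with ENZR mouse 87 at 49.9 TPM. The log2 difference was 0.15 in ENZS minus PRE-CX, with a 95% interval of -0.44 to 0.73 (adjusted p = 0.717). A fall or a rise of CCND1 inside this interval thus remained possible given the spread between tumours. In ENZR minus PRE-CX the log2 difference was -0.22 (-0.78 to 0.34, adjusted p = 0.598), and after rescaling 0.02.

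CCND3 (chr6:41934933-42050035), a second D cyclin, had medians of 22.6 TPM in PRE-CX (range 14.9 to 34.2), 21.0 TPM in POST-CX (5.80 to 24.2), 21.6 TPM in CRPC (17.1 to 32.1), 19.7 TPM in ENZS (15.6 to 25.8) and 17.6 TPM in ENZR (1.64 to 30.5). The groups overlapped throughout. The log2 difference was -0.14 in ENZS minus PRE-CX (adjusted p = 0.659) and -0.41 in ENZR minus PRE-CX (adjusted p = 0.169). With each tumour centred on its median gene both passed the test, at -0.40 (adjusted p = 0.00295) and -0.46 (adjusted p = 0.000408). CCND3 thus fell relative to the median gene of a tumour, and did not pass on the deposited or the rescaled scale.

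CDK4 (chr12:57747727-57752310), the more abundant of both kinases of the D cyclins, was also the most abundant member in the median of every group apart from CCND1 in ENZS. In PRE-CX it ran from 124 over a median of 133 to 172 TPM. The POST-CX median was 122 TPM (27.4 to 151) and the CRPC median 124 TPM (104 to 177). In ENZS it ran from 72.5 over 86.6 to 99.97 TPM, and in ENZR from 9.58 over 92.1 to 130.3 TPM. All 12 ENZS tumours were below every PRE-CX and every CRPC tumour, and 14 of 15 ENZR tumours were below every PRE-CX tumour, mouse 21 being the exception. The log2 difference from PRE-CX was -0.69 ± 0.25 (SE) in ENZS (adjusted p = 0.0233) and -0.81 ± 0.24 in ENZR (adjusted p = 0.00732). Against CRPC it did not pass as deposited in ENZS (-0.54, adjusted p = 0.162) and passed after rescaling (-0.46, adjusted p = 0.000112).

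CDK6 (chr7:92604921-92836573), the other kinase of the D cyclins, was near 0 in the table. It reached 1 TPM in 3 tumours, PRE-CX mice 4, 58 and 62, at 1.83, 3.11 and 3.26 TPM, and so did not pass the filter of 1 TPM in at least 8 tumours. Its median was 0.81 TPM in PRE-CX (lowest 0.61), 0.445 TPM in POST-CX (0.03 to 0.58), 0.135 TPM in CRPC (0.03 to 0.71), 0.19 TPM in ENZS (0.09 to 0.74) and 0.16 TPM in ENZR (0.01 to 0.54). As deposited, all 8 POST-CX and all 15 ENZR tumours were below the lowest PRE-CX tumour, as were 8 of 10 CRPC and 10 of 12 ENZS tumours. After rescaling, POST-CX mice 48 and 86, at 0.687 and 0.650 TPM, were above the lowest PRE-CX tumour, at 0.626 TPM. In a fit of all 39909 genes above 0, CDK6 was lower than in PRE-CX in POST-CX (log2 difference -0.68, adjusted p = 0.0028), CRPC (-0.88, adjusted p = 1.66e-05), ENZS (-0.83, adjusted p = 3.59e-06) and ENZR (-0.89, adjusted p = 8.69e-07), where 1.51%, 1.45%, 4.92% and 6.01% of all genes were lower. CDK6 thus differed from PRE-CX in each castrated group on the deposited scale, the only one fitted for it, at a level where TPM are imprecise. CDK2 differed from PRE-CX in each castrated group after rescaling. CDK6 passed no test among the 4 castrated groups.

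CCNE1 (chr19:29811991-29824312), the first E cyclin and a target of E2F factors, passed no test after castration alone. It ran from 6.24 over a median of 9.27 to 11.3 TPM in PRE-CX, from 1.70 over 9.57 to 10.8 TPM in POST-CX and from 5.70 over 7.76 to 10.5 TPM in CRPC. In ENZS it ran from 3.38 over 4.45 to 5.75 TPM, below every PRE-CX tumour in 12 of 12 and below every CRPC tumour in 11 of 12. In ENZR it ran from 0.32 over 4.92 to 12.9 TPM, with 12 of 15 below every PRE-CX tumour and mouse 75 above all of them. The log2 difference was -0.87 ± 0.22 in ENZS minus PRE-CX (SE, adjusted p = 0.00124), -0.75 ± 0.21 in ENZR minus PRE-CX (adjusted p = 0.00459) and -0.73 ± 0.21 in ENZS minus CRPC (adjusted p = 0.0207). The last of these did not pass with a pseudocount of 0.1 (adjusted p = 0.0636).

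CCNE2, the second E cyclin, lies on chromosome 8. Its level was from 11.9 over a median of 19.2 to 27.3 TPM in PRE-CX, 2.08 over 14.8 to 18.9 TPM in POST-CX and 9.20 over 16.1 to 33.4 TPM in CRPC. In ENZS it ran from 7.80 over 10.0 to 18.9 TPM and in ENZR from 1.03 over 10.3 to 29.6 TPM. Each ENZS tumour was below the PRE-CX median, yet only 7 of 12 were below the lowest PRE-CX tumour. The difference from PRE-CX passed in ENZR (log2 -0.77 ± 0.27, SE, adjusted p = 0.0256) and not in ENZS (-0.67 ± 0.29, adjusted p = 0.0576), where it passed after rescaling (-0.64, adjusted p = 0.00637). In ENZR minus ENZS the log2 difference was -0.11 (adjusted p = 0.819).

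CDK2 (chr12:55966830-55972789), the kinase of the E cyclins, ran in PRE-CX from 40.4 over a median of 47.4 to 55.7 TPM. The medians were 36.6 TPM in POST-CX (7.33 to 45.0) and 32.5 TPM in CRPC (26.2 to 63.8). ENZS tumours ran from 12.4 over 17.9 to 23.3 TPM and ENZR tumours from 2.04 over 18.6 to 46.7 TPM. All 12 ENZS tumours were below every PRE-CX and every CRPC tumour. Of 15 ENZR tumours, 13 were below every PRE-CX tumour, and mice 75 and 104, at 46.7 and 45.3 TPM, were inside the PRE-CX range. The log2 difference was -1.41 ± 0.27 in ENZS minus PRE-CX (SE, adjusted p = 2.57e-05), -1.27 ± 0.26 in ENZR minus PRE-CX (adjusted p = 0.000107), -0.99 ± 0.26 in ENZS minus CRPC (adjusted p = 0.0102) and -0.84 ± 0.25 in ENZR minus CRPC (adjusted p = 0.0428). The last of these did not pass with a pseudocount of 0.1 (adjusted p = 0.0538) or with no filter (adjusted p = 0.102).

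CDKN1B (chr12:12717368-12722369), which encodes the inhibitor p27, had its highest median in ENZS. It ran from 34.5 over a median of 43.7 to 81.4 TPM in PRE-CX, 14.1 over 42.9 to 53.5 TPM in POST-CX, 34.1 over 47.7 to 66.8 TPM in CRPC, 39.4 over 58.3 to 79.4 TPM in ENZS and 7.39 over 43.5 to 69.5 TPM in ENZR. Of the ENZS tumours, 10 of 12 were above the PRE-CX median and none was above the highest PRE-CX tumour, mouse 62. The log2 difference in ENZS minus PRE-CX was 0.30 as deposited (adjusted p = 0.324), 0.33 after rescaling (adjusted p = 0.0395), where the median of all genes was 0.29, and 0.04 with each tumour centred on its median gene (adjusted p = 0.796). CDKN1B therefore rose in ENZS minus PRE-CX on the rescaled scale by about as much as the typical gene. Rescaled, it was also higher in ENZS minus CRPC (adjusted p = 0.0362) and in ENZS minus POST-CX (adjusted p = 0.0498). In these, 5519 and 3546 of 17593 genes were higher, and CDKN1B passed in neither under any other setting. Between ENZR and ENZS its log2 difference was -0.45 (95% interval -0.86 to -0.04, adjusted p = 0.424).

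RB1 (chr13:48303751-48481890), the pocket protein that holds E2F factors, was present in every tumour. Its median was 23.1 TPM in PRE-CX (15.9 to 37.9), 29.0 TPM in POST-CX (9.09 to 45.5), 32.4 TPM in CRPC (22.3 to 38.9), 31.1 TPM in ENZS (21.8 to 51.9) and 26.9 TPM in ENZR (5.68 to 45.2). The groups overlapped throughout, and 11 of 12 ENZS tumours were above the PRE-CX median. The log2 difference in ENZS minus PRE-CX was 0.40 as deposited (adjusted p = 0.137), 0.44 after rescaling (adjusted p = 0.00461) and 0.15 with each tumour centred on its median gene (adjusted p = 0.238). In ENZR minus PRE-CX the values were 0.11 (adjusted p = 0.732), 0.34 (adjusted p = 0.0207) and 0.06 (adjusted p = 0.656). RB1 was lower at an adjusted p under 0.05 in no comparison under any setting run.

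E2F1 (chr20:33675477-33686385), the transcription factor released from RB1, showed the largest differences among the members. It ran from 13.3 over a median of 17.7 to 23.3 TPM in PRE-CX, from 1.49 over 12.4 to 16.1 TPM in POST-CX and from 7.60 over 13.1 to 27.7 TPM in CRPC. In ENZS it ran from 1.46 over 3.38 to 8.62 TPM, all 12 tumours below every PRE-CX tumour and 11 below every CRPC tumour. In ENZR it ran from 0.15 over 3.88 to 28.1 TPM, with 13 of 15 tumours below every PRE-CX tumour and the other two, mice 75 and 104, above all of them. The log2 difference was -2.17 ± 0.36 in ENZS minus PRE-CX (SE, adjusted p = 2.56e-06), -1.74 ± 0.35 in ENZR minus PRE-CX (adjusted p = 8.77e-05), -1.79 ± 0.35 in ENZS minus CRPC (adjusted p = 0.000398) and -1.36 ± 0.33 in ENZR minus CRPC (adjusted p = 0.0136).

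Castration alone was followed by smaller differences. On the deposited scale 0 of 9 members passed in POST-CX minus PRE-CX, 1 of them (CDK2) at an unadjusted p under 0.05, where 4.33% of all genes were called. In CRPC minus PRE-CX again 0 of 9 passed, none at an unadjusted p under 0.05, where 7.43% of all genes were called. After rescaling, CDK2 was lower than in PRE-CX in POST-CX (log2 difference -0.43, adjusted p = 0.0494) and in CRPC (-0.47, adjusted p = 0.0288), and RB1 was higher in POST-CX (0.39, adjusted p = 0.0463). These counts of 2 and 1 members stand beside 26.3% and 20% of all genes called on that scale. RB1 did not pass with each tumour centred on its median gene, while CDK2 did in both comparisons. Without the 4 tumours of low human total, CDK2 did not pass in either.

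The members that were low in ENZS were also set against the groups on castration alone. In ENZS minus CRPC, CCNE1, CDK2 and E2F1 were lower, 3 of 9, where 2.71% of all genes were lower. In ENZR minus CRPC, CDK2 and E2F1 were lower, 2 of 9, where 2.52% were. In ENZS minus POST-CX, CCNE1 and E2F1 passed, both lower, where 323 of 17131 genes were lower and 3046 higher. In ENZR minus POST-CX 0 of 9 passed, 3 at an unadjusted p under 0.05, where 3.4% of all genes were called in either direction. These comparisons share the ENZS or ENZR tumours and are not independent of those with PRE-CX.

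The 4 tumours of low human total bear on these counts. Without them, CCNE1, CDK2, CDK4 and E2F1 were lower in ENZS and in ENZR, against each of PRE-CX, CRPC and POST-CX, and CCNE2 was lower in ENZS minus PRE-CX, ENZR minus PRE-CX and ENZS minus CRPC. The shares of all genes that were lower were then 14.5% in ENZS minus PRE-CX, 13.8% in ENZR minus PRE-CX, 7.83% in ENZS minus CRPC, 5.62% in ENZR minus CRPC, 10% in ENZS minus POST-CX and 5.89% in ENZR minus POST-CX. After rescaling, with all tumours kept, CCNE1, CDK2, CDK4 and E2F1 were again lower in all 6 comparisons. The rescaled shares of all genes were 13.6% lower and 47.5% higher in ENZS minus PRE-CX, 13.8% lower and 44.6% higher in ENZR minus PRE-CX, 6.41% lower and 31.4% higher in ENZS minus CRPC and 5.45% lower in ENZR minus CRPC. In ENZS minus POST-CX 27.7% were called in either direction, with 1325 of 17593 genes lower. In ENZR minus POST-CX 14.9% were called, with 893 genes lower.

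**Figure D2:**
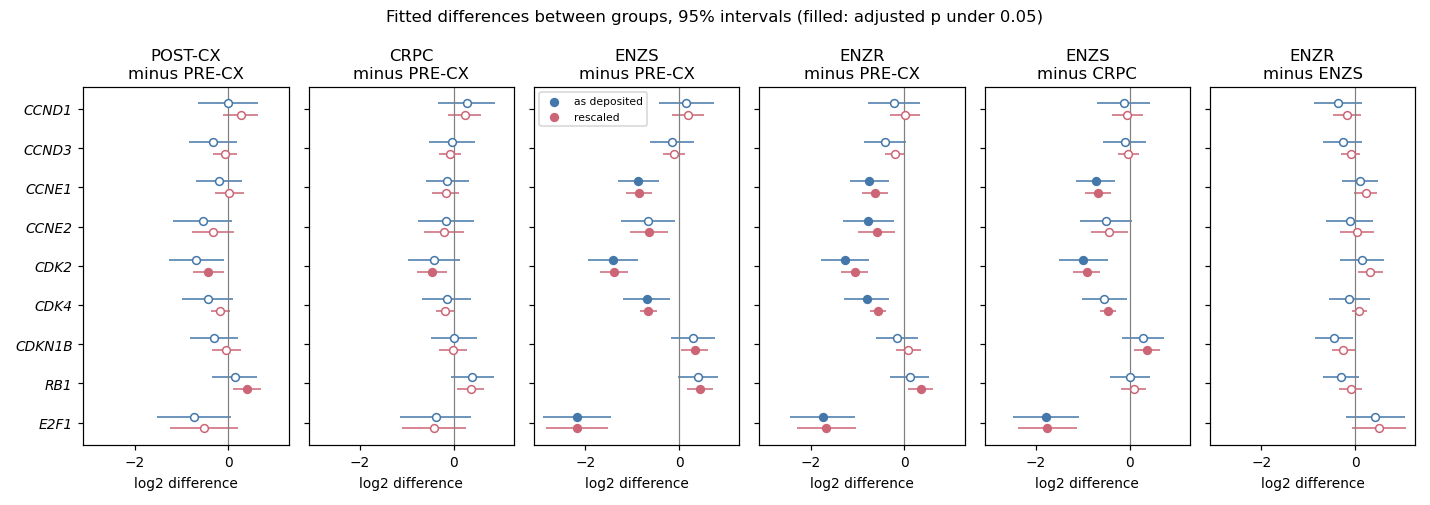
Log2 difference of each of 9 members with its 95% interval in 6 comparisons, as deposited and rescaled to the same human total. Filled points passed at an adjusted p under 0.05. E2F1, CDK2, CCNE1 and CDK4 lay below 0 in ENZS and ENZR minus PRE-CX on both scales, and no point was filled in ENZR minus ENZS.

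No member passed the test between relapse on enzalutamide and the response before it. In ENZR minus ENZS 0 of 9 members passed in limma, 1 of them (CDKN1B, lower) at an unadjusted p under 0.05, and 0.0175% of all genes were called. E2F1 differed by a log2 of 0.43 (95% interval -0.20 to 1.07) and CDK2 by 0.14 (-0.33 to 0.61), and the upper bounds were below the falls of 2.17 and 1.41 from PRE-CX to ENZS. After rescaling, the 1 member at an unadjusted p under 0.05 was CDK2, with a log2 difference of 0.32 (0.055 to 0.59, adjusted p = 0.417), E2F1 was at 0.51 (-0.068 to 1.08) and CDKN1B at -0.25 (adjusted p = 0.512), and without the 4 tumours of low human total 3 members were under that unadjusted p. As deposited, CCNE1 differed by 0.11 (-0.27 to 0.50) and rescaled by 0.22 (-0.023 to 0.47). As deposited, CDK4 differed by -0.12 (-0.56 to 0.32). Relapse after castration, CRPC minus POST-CX, gave 0 of 9 members, none at an unadjusted p under 0.05, and 0% of all genes. On the deposited scale the difference between both relapse steps gave 0 of 9 members, 1 (CDKN1B) at an unadjusted p under 0.05, where 0.187% of all genes were called.

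The ENZR group was mixed, and E2F1 and CDK2 rose from tumour to tumour with the RNA of mitosis genes. This was read from a mitosis index, the mean log2(rescaled TPM + 1) of 20 genes of mitosis such as MKI67, CCNB1 and PLK1, none of them a member. The index ran from 4.67 to 5.56 in PRE-CX, 3.18 to 5.36 in POST-CX, 3.77 to 5.34 in CRPC, 1.26 to 3.82 in ENZS and 1.20 to 4.70 in ENZR. All 20 index genes were lower in ENZS and in ENZR minus PRE-CX. Within the 15 ENZR tumours, E2F1 rose by a log2 of 1.0 ± 0.10 per unit of the index (SE, adjusted p = 4.12e-06) and CDK2 by 0.38 ± 0.07 (adjusted p = 0.00344), 2 of 9 members, where 2.94% of 17570 genes rose and 3.03% fell. The other slopes did not pass in ENZR: CDK4 at 0.16 (adjusted p = 0.0699), CCNE2 at 0.29 (adjusted p = 0.143), CCNE1 at 0.22 (adjusted p = 0.139), CCND3 at 0.11, CCND1 at 0.05, RB1 at -0.15 and CDKN1B at -0.24 (adjusted p = 0.0846).

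Over all 54 tumours, with each group given its own mean, 5 of 9 members rose with the index, where 9.16% of all genes rose and 19.2% fell. The slope was 0.88 ± 0.06 for E2F1 (SE, adjusted p = 2.27e-19), 0.34 ± 0.04 for CDK2 (adjusted p = 3.63e-09), 0.33 ± 0.07 for CCNE2 (adjusted p = 0.000353), 0.23 ± 0.05 for CCNE1 (adjusted p = 0.000167) and 0.16 ± 0.03 for CDK4 (adjusted p = 8.34e-05). CCND1 had a slope of 0.07 (adjusted p = 0.479), CCND3 0.11 (adjusted p = 0.0537), RB1 -0.09 (adjusted p = 0.22) and CDKN1B -0.14 (adjusted p = 0.0533). The 5 members that rose with the index inside groups were the 5 that were lower in ENZR minus PRE-CX.

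**Figure D3:**
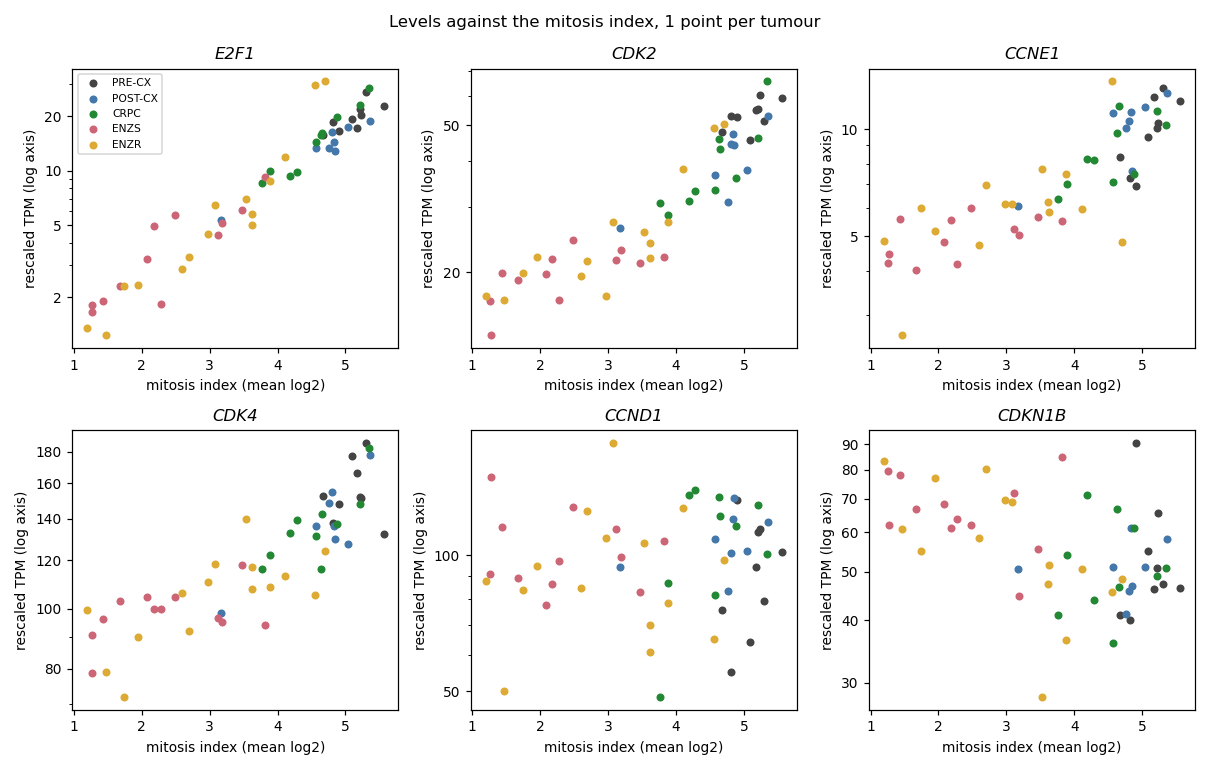
Rescaled TPM (log axis) of 6 members against the mitosis index, 1 point per tumour, coloured by group. E2F1 and CDK2 rise along the index through all groups, with ENZR tumours spread from 1.20 to 4.70, while CCND1 shows no slope past the test.

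ENZR tumours of high index did not share 1 pattern of E cyclins. Mice 104 and 75 had the highest index of the group, 4.70 and 4.56, and equal E2F1, 28.1 TPM each, with CDK2 at 45.3 and 46.7 TPM. CCNE1 was 4.34 TPM in mouse 104, inside the ENZS range, and 12.9 TPM in mouse 75, the highest of all 54 tumours. CCNE2 was 16.6 TPM in mouse 104 and 29.6 TPM in mouse 75. Mouse 94 came next in index at 4.11, with E2F1 at 11.2 TPM, CDK2 at 35.8 TPM and CCNE2 at 21.6 TPM. Mouse 21 paired the highest CDK4 of ENZR, 130.3 TPM, with a CDKN1B of 26.2 TPM, the lowest of the group apart from mouse 87. Mouse 33 had the highest CCND1 of all tumours, 167 TPM, at an index of 3.08. At the other end, mouse 98 had an index of 1.20, E2F1 at 1.06 TPM, CDK2 at 13.6 TPM and CDKN1B at 65.6 TPM. These tumours were picked from the group for their values, so they are single cases with no test.

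Ratios within a tumour do not depend on its human total and compare RNA levels of members, not the activity of the pathway. A ratio also rises where its denominator falls, as CDK2, E2F1 and CCNE1 did under enzalutamide. The ratios were chosen after the levels were seen and are given with no test. The ratio of CDKN1B to CDK2 ran from 0.757 over a median of 0.918 to 1.72 in PRE-CX, with medians of 1.31 in POST-CX and 1.33 in CRPC. It ran from 1.94 over 3.48 to 4.78 in ENZS, all 12 tumours above the PRE-CX range, and from 0.925 over 2.52 to 4.83 in ENZR, 10 of 15 above it. The lowest ENZR ratio was that of mouse 75. The ratio of RB1 to E2F1 had medians of 1.30, 2.23, 2.45, 9.32 and 5.57 in the order PRE-CX, POST-CX, then CRPC, then ENZS and last ENZR, with 5 of 8 POST-CX, 7 of 10 CRPC, 12 of 12 ENZS and 13 of 15 ENZR tumours beyond the highest PRE-CX value. The ratio of CDK4 to CDK2 had medians of 2.82, 3.43, 3.797, 5.07 and 4.32 in the same order, and all 12 ENZS tumours exceeded the highest PRE-CX value. The ratio of CCND1 to CCNE1 had medians of 8.47, 9.67, 11.95, 20.9 and 17.9.

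**Figure D4:**
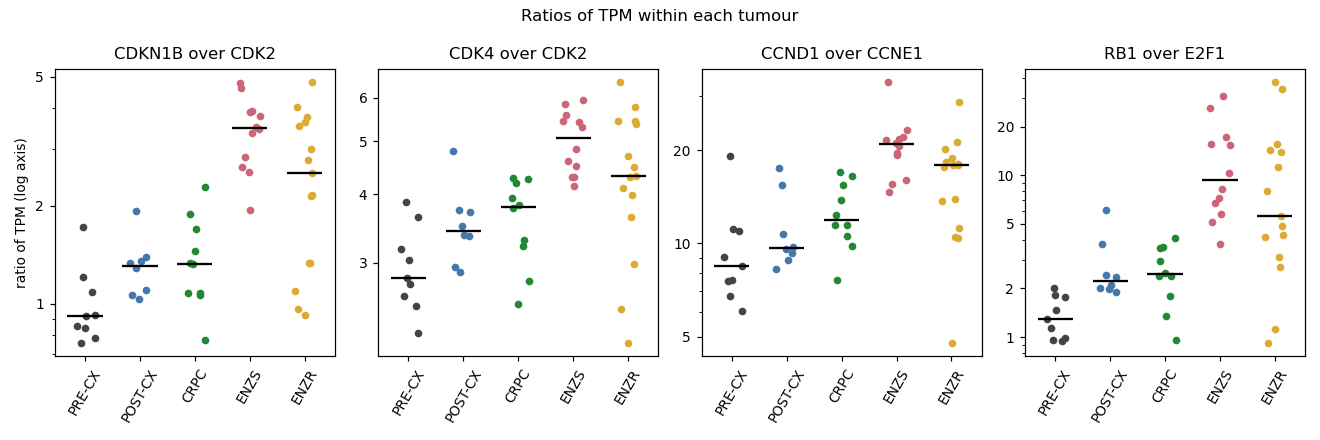
Ratio of TPM within each tumour (log axis) for 4 pairs of members, with the group median as a bar. All 12 ENZS tumours lay above the PRE-CX range for CDKN1B over CDK2, CDK4 over CDK2 and RB1 over E2F1, and ENZR tumours spread from inside that range (CDKN1B over CDK2) or from 1 tumour below it (CDK4 over CDK2, RB1 over E2F1) to above it.

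The rest of the pathway was read from lists of genes that are no members. Of 20 genes of DNA synthesis that E2F factors drive, 18 were lower in ENZS minus PRE-CX and 17 in ENZR minus PRE-CX, with none higher. Their median log2 difference was -1.54 in ENZS and -1.40 in ENZR, beside 0.26 and 0.07 for all genes. RRM2, a subunit of ribonucleotide reductase, fell by 3.70 on the log2 scale in ENZS, TYMS, which makes thymidylate, fell by 3.06 and CDC45, part of the replicative helicase, fell by 2.95. Of 9 other E2F and DP factors, 3 were lower in both groups, namely E2F2, E2F7 and E2F8 (log2 -1.34, -1.66 and -1.75 in ENZS), and none was higher. E2F3, E2F4, E2F5, E2F6, TFDP1 and TFDP2 did not pass in either. After rescaling, 4 of the 9 were lower and 1 higher in ENZS, and 4 lower and 2 higher in ENZR. The shares of all genes were then 13.6% lower and 47.5% higher in ENZS, and 13.8% and 44.6% in ENZR.

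Of 8 other cyclins, kinases and activators of G1, 6 passed the filter, CCND2 and CCNA1 being near 0. CCNA2, the S phase cyclin, and CDC25A, a phosphatase that activates CDK2, were lower in ENZS (log2 -2.73 and -2.09) and in ENZR (-2.23 and -1.75). As deposited, CDK7, CCNH and MNAT1, which form the CDK-activating kinase, and CDK3 did not pass. After rescaling, 1 of the 6 was higher and 2 lower in ENZS minus PRE-CX, where 47.5% of all genes were higher and 13.6% lower. In ENZR minus PRE-CX 1 was higher and 3 lower, where 44.6% and 13.8% were. Of 6 other CDK inhibitors, 2 were higher in ENZS minus PRE-CX, CDKN2B (p15) at a log2 of 1.12 and CDKN2A at 0.76, a share near the 30.3% of all genes that were higher there. In ENZR 1 was lower, CDKN1C at -0.62, where 11.5% of all genes were. CDKN1A, the other well-known inhibitor of the p27 family, was at 0.03 in ENZS (adjusted p = 0.961). Within ENZR, CDKN2B and CDKN2A fell as the mitosis index rose, by 0.61 and 0.54 on the log2 scale per unit (adjusted p = 0.0374 and 0.00854).

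A further list held 6 genes of the ubiquitin ligases that degrade p27 or cyclin E. SKP2, the subunit that recognises p27, and CKS1B, its cofactor, were lower in ENZS (log2 -1.02 and -1.0), where 8.18% of all genes were. In ENZR both were lower again (-0.71 and -0.95), with RBX1 (-0.59), where 11.5% of all genes were. After rescaling, 3 of the 6 were lower and 2 higher in both groups. On that scale 13.6% of all genes were lower and 47.5% higher in ENZS, and 13.8% and 44.6% in ENZR. SKP2 also rose with the mitosis index within ENZR (0.31 per unit, adjusted p = 0.0194). Of 7 other pocket proteins and partners in the MuvB complex, RBL2, a relative of RB1, was higher in ENZS (0.82, adjusted p = 0.00535). This was 1 of 7 where 30.3% of all genes were higher. The RBL2 median was 45.0 TPM in PRE-CX, 63.8 in POST-CX, 63.5 in CRPC, 81.2 in ENZS and 90.0 in ENZR. RBL2 was thus not highest in ENZS, though its difference in ENZR minus PRE-CX did not pass. LIN9 was lower in ENZS (-1.01) and ENZR (-0.98). In ENZR minus ENZS none of these list genes passed in limma.

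The genes most like each member were found by Pearson's r over the 54 tumours on log2(rescaled TPM + 1). The tumours fall into groups, so r is given also with the group means removed, and all are descriptions. For E2F1 they were DTL, MYBL2 and ASF1B, with r from 0.975 to 0.979, and 0.944 to 0.959 with group means removed. For CDK2 they were ZWILCH, ORC1 and HASPIN (0.951 to 0.961, and 0.853 to 0.884). CDK4 was most like NT5DC2, POLD2 and PPP1R14B (0.904 to 0.917, and 0.739 to 0.816), CCNE1 most like CCNF, SHCBP1 and GINS3 (0.861 to 0.880, and 0.675 to 0.730) and CCNE2 most like C1orf112, DSCC1 and TIMM8A (0.781 to 0.804, and 0.721 to 0.794). They were SMAP2, NFIX and RALGDS for CCND1 (0.699 to 0.762, and 0.732 to 0.790), PCYT2, MVK and YIF1B for CCND3 (0.675 to 0.712, and 0.654 to 0.713), and IMPAD1, AP001033.4 and FEM1C for CDKN1B (0.758 to 0.778, and 0.732 to 0.772). For CDK6 they were HES6, ST6GALNAC1 and LOX (0.736 to 0.742), which fell to between 0.220 and 0.310 with group means removed. For RB1 they were CUL4A, ALG11 and SUCLA2 (0.800 to 0.825, and 0.767 to 0.813). Among members, CDK2 and E2F1 were the closest pair, at r = 0.939, and 0.874 with group means removed.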

How the data were processed

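RNA-seq of 54 LNCaP xenograft tumours was used (PRE-CX 9, POST-CX 8, CRPC 10, ENZS 12, ENZR 15), grouped by the labels. The authors prepared stranded poly(A) libraries. Per the labels, the processing tools were FastQC 0.11.9, Trim Galore 0.6.5, STAR 2.7.2b and RSEM 1.3.3, and reads were aligned to a combined human (GRCh38) and mouse (GRCm38) reference. The deposited values were TPM per human gene, which hold no read depth, so precision rests on the spread between tumours. A tumour's TPM therefore sum to less than 1000000 over human genes, and the rest lies outside this table. No columns were identical.

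From these, log2(TPM + 1) was fitted with limma 3.58.1 (R 4.3.3, empirical Bayes with trend) for 5 group means over all tumours, keeping the 17131 genes that reached 1 TPM in 8 tumours or more, with Benjamini-Hochberg adjustment over all genes and a call at an adjusted p under 0.05. All 10 comparisons of 2 groups were made, and 1 of both relapse steps. Slopes on the mitosis index were fitted on TPM rescaled to 1000000 over human genes, leaving out the 20 index genes. CDK6 was fitted without the filter, its group differences on the deposited scale only. The script was tested on simulated data. All members were named; of each list, the genes passing were counted and up to 3 with the largest change named; for each member, the 3 genes of highest r among those passing the filter. Names outside this rule (E2F3 to E2F6, TFDP1, TFDP2, CDK3, CDK7, CCNH, MNAT1, CDKN1A and single tumours) were chosen after values were seen. The members and lists were chosen with earlier results of these data known. Each mouse gave 1 tumour. Alternatives were rescaling, centring on the median gene, a pseudocount of 0.1, no filter, and leaving out the 4 tumours with a human total under 70%. Promoters and positions came from RefSeq (GRCh38.p14). Some prostate markers are not reported here.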

Additional observations from a re-analysis of the deposited data

Results flagged for a closer look

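In 9 of 30 sets of a member and a group of 8 to 10 tumours, the highest or lowest tumour stood apart from the rest by Dixon's criterion, which by chance marks about 1 in 20. POST-CX mouse 91, with a human total of 27.9%, was lowest in CCNE1 (1.70 TPM, next 6.91), CCNE2 (2.08 TPM, next 11.9), CDK6 (0.03 TPM, next 0.34) and E2F1 (1.49 TPM, next 10.5). After rescaling it stood apart only in E2F1, at 5.34 TPM, and its mitosis index of 3.18 was the lowest of the group. CRPC mouse 81, with a human total of 97.0%, was highest in CCND3 (32.1 TPM, next 24.1), CCNE2 (33.4 TPM, next 21.4), CDK2 (63.8 TPM, next 43.3) and CDK4 (177 TPM, next 139), and after rescaling in CCNE2, CDK2 and CDK4. Its mitosis index of 5.34 was the highest of CRPC. PRE-CX mouse 62 was highest in CDKN1B (81.4 TPM, next 54.2), also after rescaling.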

How the results depend on the processing

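TPM hold no read depth, so low genes such as CDK6 are the least certain here, and no counting interval can be given. No paired analysis was possible because no mouse number is shared between groups. The fall of E2F1, CDK2, CCNE1 and CDK4 in ENZS and ENZR minus PRE-CX kept its direction and passed under all 5 alternatives, and so did that of E2F1 in ENZS minus CRPC and ENZR minus CRPC. The number of members that passed moved by over 1.5 times in these cases. Rescaled, it was 2 in POST-CX minus PRE-CX, 1 in CRPC minus PRE-CX, 7 in ENZS minus PRE-CX, 5 in ENZS minus POST-CX, 4 in ENZR minus POST-CX, 5 in ENZS minus CRPC and 4 in ENZR minus CRPC. Centred on the median gene, it was 2, 1, 4, 4, 5 and 6 in the same order without ENZS minus PRE-CX. All of these members were lower, where 2306, 1624, 2029, 1082, 2227 and 2023 of 17131 genes were. Without the 4 tumours of low human total, it was 1 in CRPC minus PRE-CX (RB1, higher, where 3029 of 17131 genes were), 4 in ENZS minus POST-CX, 4 in ENZR minus POST-CX, 5 in ENZS minus CRPC and 4 in ENZR minus CRPC. With no filter, which adds CDK6, it was 1 in POST-CX minus PRE-CX, 1 in CRPC minus PRE-CX, 1 in ENZS minus POST-CX and 1 in ENZR minus CRPC, and with a pseudocount of 0.1 it was 1 in ENZS minus POST-CX and 1 in ENZR minus CRPC. In ENZS minus POST-CX and ENZR minus CRPC, 389 and 213 of 39909 genes were lower with no filter, and 271 and 375 of 17131 with that pseudocount. With TPM as deposited, slopes passed for 5 members within ENZR and 9 within groups. On that scale a low human total lowers the index and each gene together, and the share of all genes is not given. These slope counts are therefore not read as a result about the members.

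Some log2 differences that had not passed changed sign: CCND1 in ENZS minus PRE-CX to -0.10 when centred, CCND1 in ENZR minus PRE-CX to 0.017 rescaled and 0.091 without low totals, CDKN1B in ENZR minus PRE-CX to 0.087 and 0.051, CCNE2 in ENZR minus ENZS to 0.049 rescaled, 0.093 centred and 0.10 without low totals, and CDK4 in ENZR minus ENZS to 0.086, 0.083 and 0.12. The slope of CCND1 within ENZR became -0.025 without low totals. As deposited, the slope of CDKN1B became 0.16 within ENZR and 0.19 within groups (adjusted p = 0.0354), and that of RB1 0.22 in both (adjusted p = 0.23 and 0.00806). In ENZR minus ENZS, CRPC minus POST-CX and the difference of both steps, 0 members passed under any alternative. The cause of these changes was not tested.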

Other observations

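Of the 20 genes most like RB1 over the 54 tumours, 15 lie on chromosome 13, the chromosome of RB1, of 19 with a position in the RefSeq table, while 1.82% of the 14317 candidate genes with a position do. Among them were CUL4A, ALG11 and SUCLA2 and, picked after seeing the list, DOCK9, RNF6, FNDC3A and AKAP11. With the group means removed, the r of these genes with RB1 stayed between 0.744 and 0.813. The other members had between 0 and 4 of 20 such neighbours on their own chromosome, with 4 for CCND1 on chromosome 11 and 3 each for CCND3 on chromosome 6 and CDK4 on chromosome 12. These are correlations over the same libraries and are given as a description.

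The ratio of CCNE2 to CCNE1 ran from 1.31 to 2.88 over the 9 PRE-CX tumours, 1.22 to 2.48 over 8 POST-CX, 1.18 to 3.36 over 10 CRPC, 1.74 to 4.04 over 12 ENZS and 0.939 to 3.84 over 15 ENZR tumours. Above the PRE-CX range were 2 CRPC, 3 ENZS and 4 ENZR tumours, and below it 1 POST-CX, 1 CRPC and 2 ENZR tumours. No test was made, and a range widens with the number of tumours.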
